A study of Mus musculus with 12 samples.

Results

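Gonadal-type genes encode hormones, hormone receptors, steroid enzymes and a transcription factor that belong chiefly to the ovary and testis. They were examined in adrenal glands of mice with a transgene of Ftz-F1, now Nr5a1, the gene of the nuclear receptor SF-1. The 10 genes chosen were Amh, Amhr2, Fshr, Lhcgr, Cyp17a1, Cyp19a1, Inha, Inhba, Inhbb and Gata4. Members were the probes that the platform's annotation pairs with these symbols. It gave 8 probes of 8 genes, 1 each, among 25344 probes of 18617 named genes, and all 8 genes were tested among 21513 features. Lhcgr and Cyp19a1 have no probe in that annotation and were not analysed here.

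Each transgenic mouse was compared with a wild-type littermate of its sex and age on a pair of 2-colour arrays with the dyes exchanged. There were 3 pairs of 4-month-old mice with 2 copies of the transgene (pairs 1, 3 and 5) and 3 pairs of 10-day-old mice with 1 copy (pairs 11, 13 and 15), each called by the label number of its transgenic animal. The labels write the transgene as YAC. Pair 5 at 4 months and pair 15 at 10 days were female and the other 4 male. All transgenic mice came from 1 line, heterozygous or homozygous for the transgene. Age and copy number changed together, so these cannot be told apart. All values below are log2 ratios of the transgenic and wild-type channels, corrected for the dye trend, and a pair value is the mean of the 2 arrays of a pair. All columns ran the same way for a pair, but no source names which channel is the numerator. The direction is therefore that of the deposited ratios, while signs are those after the correction. On single arrays these can differ from the deposited signs. A positive ratio does not by itself mean a higher level in the transgenic mouse.

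SF-1 is required for the adrenal cortex and the gonads, which arise from a common primordium of the embryo. In the gonad it acts with GATA4 on genes of hormone signalling and steroid synthesis, and the adult mouse adrenal normally expresses little of this program. Members of the program are known to appear in adrenocortical tumours of gonadectomised mice.

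The targeted gene Nr5a1 was measured by 1 probe, and the files do not say whether it also binds transcripts of the transgene. In pair values it was at -0.46, 0.11 and -0.22 in pairs 1, 3 and 5 at 4 months, against -0.57, -0.65 and -0.79 in pairs 11, 13 and 15 at 10 days. At 10 days all 6 arrays were negative, from -0.81 to -0.54, whereas at 4 months 2 of 6 were positive. The means were -0.19 ± 0.29 at 4 months and -0.67 ± 0.11 at 10 days (SD, n = 3 each), with adjusted p = 0.568 and 0.327 in limma. The groups of Nr5a1 did not overlap, as those of 10.4% of features, and the 10-day pairs were the more negative ones.

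Some pairs stood apart by markers of other cell types. Lymphocyte genes (6 measured) had a median of -1.86 in pair 3, while the remaining pairs ranged from -0.07 to 0.14. Hepatocyte genes (8 measured) had one of 1.44 in pair 11, while the remaining pairs ranged from 0.04 to 0.42. Adipocyte genes (5 measured) had one of 1.04 in pair 15, while the remaining pairs ranged from -0.23 to 0.26. Amhr2 was low in pair 3 but lowest in pair 5, where these medians were -0.07, 0.04 and 0.26. Inha was highest in pair 15, with the adipocyte genes, and lowest in pair 1, where the adipocyte median was -0.16. The lowest adipocyte median was that of pair 3 at -0.23, where Inha was at -0.49. In pair 5 the adipocyte median was 0.26 and Inha 0.07, against 0.04 and 0.34 in pair 13. The part of these markers in the values of Amhr2 and Inha was not tested. Without pairs 3, 11 and 15 together, chosen after seeing the data, and with both age groups weighted equally, the means were -0.42 for Amhr2, 0.25 for Fshr, -0.21 for Cyp17a1, -0.11 for Inha and -0.15 for Inhba. Over all 6 pairs they were -0.39, 0.29, -0.16, -0.10 and -0.13. Of the 8 means, 1 changed sign without these pairs, that of Inhbb, which was at 0.13 over all 6 pairs. The adrenal medulla list had a median of 0.32 over all 6 pairs and the adrenal cortex list one of -0.10, with 0 genes past the threshold in either in limma. At an unadjusted p under 0.05 there were 5 of 8 medulla genes and 1 of 7 cortex genes, against 15% of all features. That cortex gene was Nr5a1, the targeted gene itself.

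None of the 8 genes passed an adjusted p of 0.05 in limma, which tests each gene against the pair spread and was adjusted over all 21513 features. Called features made up 0.0558% of all features in the mean over all 6 pairs, 0% in the 4-month mean, 0% in the 10-day mean and 0% in the difference between the groups. An ordinary linear model without moderation also called 0 of the 8. At an unadjusted p under 0.05, limma had 3 of 8 in the 4-month mean (Amhr2, Fshr and Inhba), against 12.3% of all features, and 1 of 8 in the 10-day mean (Fshr), against 8.34%. It had 2 of 8 in the mean over all 6 pairs (Amhr2 and Fshr), against 15% of all features, and 2 of 8 in the difference (Amhr2 and Inha), against 4.56%. Over all 6 pairs, 3 of the 8 means were positive and 5 negative, with a median of -0.09, while all features had a median of -0.01 and 47.1% of them were positive. At 4 months 3 of 8 were positive, against 48% of all features, and at 10 days 5 of 8, against 48.6%. The median of the 8 genes was -0.10 at 4 months and 0.04 at 10 days, and that of all features was -0.01 at both ages. On all 12 arrays, 0 of the 8 kept 1 sign, as 1.71% of features did. In a whole gland, fewer cells of a type and less RNA per cell cannot be told apart.

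The precision of these values was limited in part by the agreement of the dye-swapped arrays. For 5 of the 8 genes, the arrays with the transgenic sample in Cy5 and those with it in Cy3 differed on average by more than the mean over the pairs, as they did for 74.9% of features. The array error of a pair value was taken as the SD over pairs of the Cy5 minus Cy3 difference, divided by 2. Its median over 20356 features with all 6 pair values was 0.16, against a median SD over the pairs of 0.22. The labels date the arrays of the dye orientations apart, so dye and date cannot be told apart. The spot signals of the 8 probes lay between 181 for Gata4 and 2525 for Inha, on the scale of the recovered channel numbers. Amhr2 at 206 and Fshr at 252 were the next dimmest of the 8. The signals of 7 adrenal cortex markers lay between 3544 and 21790. Brightness bears on precision and does not rank transcripts of different genes.

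**Figure D1:**
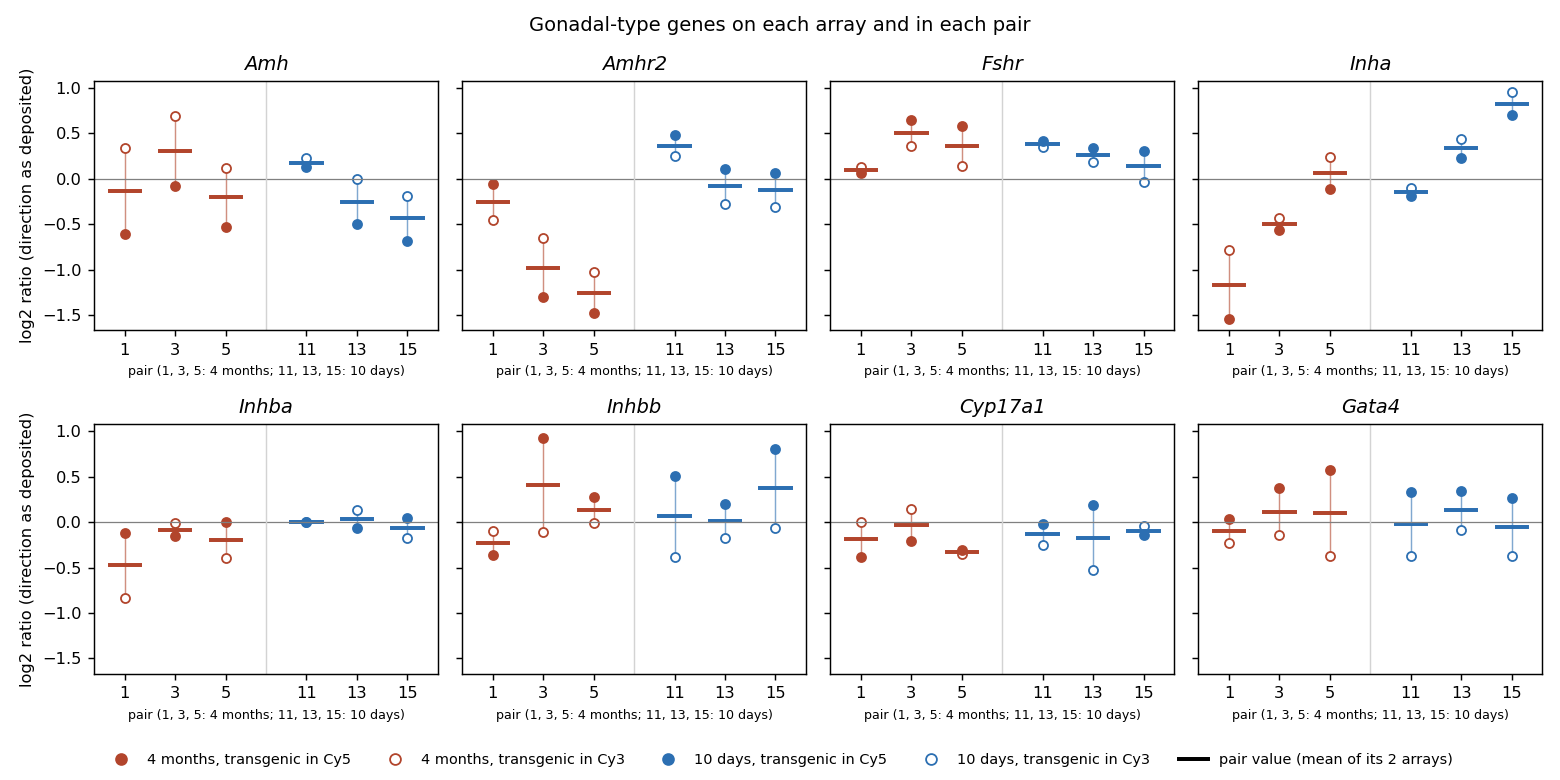
Log2 ratios of the 8 gonadal-type genes in the deposited direction, by pair, with 4-month pairs on the left of each panel and 10-day pairs on the right. Filled points are arrays with the transgenic sample in Cy5, open points those with it in Cy3, and bars pair values. Amhr2 is negative on all 6 arrays at 4 months, the Cy5 array of Inha is the lower one in every pair while its pair values run from -1.16 to 0.83, and the arrays of Gata4 separate by dye in every pair.

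Amhr2 encodes the type II serine/threonine kinase receptor of anti-Müllerian hormone, which starts the regression of the Müllerian ducts in the male embryo. It had the most negative mean of the 8 genes at 4 months. The pair values were -0.26, -0.98 and -1.25 in pairs 1, 3 and 5 at 4 months, against 0.37, -0.08 and -0.12 in pairs 11, 13 and 15 at 10 days. The 4-month pairs lay below all 10-day pairs, and pairs 3 and 5 were the low ones. The 4-month mean was -0.83 ± 0.51 and the 10-day mean 0.06 ± 0.27 (SD, n = 3 each). On single arrays at 4 months it was -0.06 and -0.45 in pair 1, -1.30 and -0.65 in pair 3, then -1.48 and -1.03 in pair 5, each with the Cy5 array first. It was negative on all 6 of these arrays, whereas at 10 days 4 arrays were positive and 2 negative. The SD over all 6 pairs, which includes the difference between the age groups, was 0.61, and within the groups it was 0.41. Both were larger than the array error of 0.24.

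In limma the 4-month mean of Amhr2 had a 95% interval from -1.27 to -0.39 (unadjusted p = 0.00263, adjusted p = 0.233), and the 10-day mean one from -0.39 to 0.50 (adjusted p = 0.965). The difference, 4 months minus 10 days, was -0.88 (SE 0.27, 95% interval -1.51 to -0.26, unadjusted p = 0.0118, adjusted p = 0.933). Of the 8 genes, Amhr2 and Inhba had groups that did not overlap, as did 10.4% of all features, and both had the 4-month pairs below, as did 5.33%. Leaving out pair 1, 3 or 5 in turn gave 4-month means of -1.11, -0.75 and -0.62. The mean over all 6 pairs was -0.39 (SE 0.14).

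The RefSeq window at an Amhr2 start site is shown because it holds the only CAAGGTCA among the windows of these genes. RefSeq promoter windows run from 250 bases before a start site to 50 after it, and 9 windows of 7 of the 10 genes were found in assembly GRCm38.p6. Both strands were searched for CAAGGTCA, an extended site that SF-1 binds as a monomer, for its variant CAAGGCCA, and for the shorter AGGTCA that lies within the first of them. For GATA factors the forms AGATAA or TGATAA were searched, and also AGATAG or TGATAG. Of all 32851 windows, 1.56% hold CAAGGTCA, 2.40% CAAGGCCA, 16.3% AGGTCA and 29.8% at least 1 of the GATA forms. Of the genes without a probe, Cyp19a1 has CAAGGCCA in a window, and Cyp19a1 and Lhcgr have AGGTCA. The start site of the Amhr2 window lies 365 bases inside the RefSeq gene. Capitals mark AGGTCA at positions -230 to -225 from the start site, preceded by the 2 bases that complete CAAGGTCA, and TGATAA on the opposite strand at -199 to -194. A match describes these letters only and is no evidence of binding.
Amhr2 promoter window, chr15:102445117-102445416, + strand, GRCm38.p6: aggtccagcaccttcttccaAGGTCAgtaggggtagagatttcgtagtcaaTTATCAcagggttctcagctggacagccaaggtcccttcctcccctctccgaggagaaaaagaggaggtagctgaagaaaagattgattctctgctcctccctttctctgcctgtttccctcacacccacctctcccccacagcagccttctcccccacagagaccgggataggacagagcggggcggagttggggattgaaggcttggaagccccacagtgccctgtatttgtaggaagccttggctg

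Amh encodes the ligand of this receptor, a hormone of Sertoli and granulosa cells. Its pair values were -0.13, 0.31 and -0.20 in pairs 1, 3 and 5 at 4 months, against 0.18, -0.25 and -0.43 in pairs 11, 13 and 15 at 10 days. The groups overlapped, and both held values of either sign. The means were -0.01 ± 0.28 at 4 months and -0.17 ± 0.31 at 10 days (SD, n = 3 each), with adjusted p = 0.987 and 0.812 in limma. In each pair the Cy5 array of Amh was lower than the Cy3 array, and the mean was -0.38 with the transgenic sample in Cy5 and 0.20 with it in Cy3. The 95% interval of the mean over all 6 pairs ran from -0.34 to 0.16, so changes of either sign within these bounds remain compatible with the arrays.

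Fshr encodes the receptor of follicle-stimulating hormone, a G protein-coupled receptor of granulosa and Sertoli cells. It was positive in all 6 pairs. The pair values were 0.10, 0.50 and 0.36 in pairs 1, 3 and 5 at 4 months, against 0.39, 0.27 and 0.14 in pairs 11, 13 and 15 at 10 days, and the groups overlapped. The means were 0.32 ± 0.21 at 4 months and 0.26 ± 0.13 at 10 days (SD, n = 3 each). On 11 of 12 arrays the ratio was positive, the exception being the Cy3 array of pair 15 at -0.03. Of the 8 genes, Fshr and Cyp17a1 had the same sign in 6 of 6 pairs, as did 10.4% of all features, and 5.67% were positive in all 6 pairs as Fshr was.

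The mean of Fshr over all 6 pairs was 0.29 (SE 0.08, 95% interval 0.11 to 0.48, unadjusted p = 0.00672, adjusted p = 0.172 in limma). It ranked 841 of 21513 features by p. On arrays with the transgenic sample in Cy5 alone it was 0.39 (adjusted p = 0.0391), where the dye effect stays in the mean, and on those with it in Cy3 alone 0.19 (adjusted p = 0.236). The difference between the groups was 0.06 (95% interval -0.31 to 0.43). The Fshr window, shown for its start at the RefSeq gene start, held none of the motifs searched, so it carries no capitals.
Fshr promoter window, chr17:89200626-89200925, - strand, GRCm38.p6: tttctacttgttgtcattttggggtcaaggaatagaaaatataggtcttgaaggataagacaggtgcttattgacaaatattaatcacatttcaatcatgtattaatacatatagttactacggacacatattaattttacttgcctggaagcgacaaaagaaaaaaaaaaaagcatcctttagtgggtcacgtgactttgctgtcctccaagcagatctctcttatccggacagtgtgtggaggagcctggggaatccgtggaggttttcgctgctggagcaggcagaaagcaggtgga

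Inha, Inhba and Inhbb encode subunits of inhibins and activins. Inhibins join the alpha subunit of Inha to a beta subunit and restrain follicle-stimulating hormone, whereas activins are dimers of the beta subunits of Inhba and Inhbb and stimulate it. Inha had the widest spread over pairs of the 8 genes. The pair values of Inha were -1.16, -0.49 and 0.07 in pairs 1, 3 and 5 at 4 months, against -0.14, 0.34 and 0.83 in pairs 11, 13 and 15 at 10 days. The groups overlapped through pairs 5 and 11. The means were -0.53 ± 0.62 at 4 months and 0.34 ± 0.49 at 10 days (SD, n = 3 each).

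The Cy5 array of Inha was lower than the Cy3 array in all 6 pairs, on average by more than the mean over the pairs, with a mean of -0.24 on the Cy5 and 0.05 on the Cy3 arrays. With the Cy5 array first, they gave -1.54 and -0.78 in pair 1, -0.56 and -0.43 in pair 3, and -0.11 against 0.24 in pair 5 at 4 months. At 10 days they gave -0.19 and -0.10 in pair 11, 0.23 and 0.44 in pair 13, then 0.70 and 0.95 in pair 15. In 5 of 6 pairs both arrays had the same sign, the exception being pair 5. The SD over all 6 pairs was 0.69 and the array error 0.12, a ratio of 5.65 that 2.90% of features exceeded, against a median ratio of 1.37. The pair spread itself was exceeded by 3.17% of features. It includes the difference between the age groups, and within the groups the SD of Inha was 0.55.

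In limma the difference of Inha, 4 months minus 10 days, was -0.87 (SE 0.35, 95% interval -1.67 to -0.07, unadjusted p = 0.0371, adjusted p = 0.933). The 4-month mean had adjusted p = 0.432 and the 10-day mean adjusted p = 0.765. Leaving out pair 1 moved the 4-month mean to -0.21 and leaving out pair 5 moved it to -0.83. The difference was -0.55 without pair 1 and -1.17 without pair 5. The female pair had the highest value in both age groups, 0.07 in pair 5 and 0.83 in pair 15. The female minus male difference was 0.81 (SE 0.24, 95% interval 0.25 to 1.38, unadjusted p = 0.0114, adjusted p = 0.798), with 2 female and 4 male pairs. Inha was the only 1 of the 8 genes with an unadjusted p under 0.05 in that comparison, in which 5.76% of features had one and 0% passed. In the same comparison adipocyte genes had 5 of 5 positive values, a median of 0.78 and 4 of 5 at an unadjusted p under 0.05, and their part in the value of Inha was not tested.

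The beta subunit gene Inhba was near 0 at 10 days and negative at 4 months. Its pair values were -0.48, -0.09 and -0.20 in pairs 1, 3 and 5 at 4 months, against 0.00, 0.03 and -0.06 in pairs 11, 13 and 15 at 10 days. The 4-month pairs lay below all 10-day pairs. The means were -0.25 ± 0.20 at 4 months and -0.01 ± 0.05 at 10 days (SD, n = 3 each), with adjusted p = 0.399 and 0.989. Without pair 1 the 4-month mean was -0.14. The SD over pairs of 0.19 and the array error of 0.18 were of like size, and the mean was -0.05 on arrays with the transgenic sample in Cy5 and -0.21 on those with it in Cy3.

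Inhbb, the gene of the other beta subunit, was higher on the Cy5 array than on the Cy3 array in all pairs but pair 1. Its pair values were -0.23, 0.41 and 0.13 in pairs 1, 3 and 5 at 4 months, against 0.06, 0.01 and 0.37 in pairs 11, 13 and 15 at 10 days, and the groups overlapped. The means were 0.10 ± 0.32 at 4 months and 0.15 ± 0.19 at 10 days (SD, n = 3 each), with adjusted p = 0.789 and 0.821. The mean over pairs was 0.39 on arrays with the transgenic sample in Cy5 and -0.14 on those with it in Cy3. The mean was positive over all 6 pairs at 0.13, and the array error of 0.25 exceeded the pair SD of 0.24.

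The Inha and Inhbb windows are shown side by side as those of the subunits of inhibin B. In the Inha window, whose start site lies 532 bases inside the RefSeq gene, capitals mark AGGTCA at -69 to -64. In the Inhbb window they mark AGATAG on the opposite strand at -27 to -22. The Inhba window, whose start site lies 7595 bases from the RefSeq gene start, held none of the motifs searched.
Inha promoter window, chr1:75507359-75507658, + strand, GRCm38.p6: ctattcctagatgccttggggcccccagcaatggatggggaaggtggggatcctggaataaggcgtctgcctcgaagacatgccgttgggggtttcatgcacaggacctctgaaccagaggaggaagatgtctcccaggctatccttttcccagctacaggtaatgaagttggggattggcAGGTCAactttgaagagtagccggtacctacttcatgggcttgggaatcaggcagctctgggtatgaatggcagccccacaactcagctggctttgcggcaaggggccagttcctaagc
Inhbb promoter window, chr1:119422199-119422498, - strand, GRCm38.p6: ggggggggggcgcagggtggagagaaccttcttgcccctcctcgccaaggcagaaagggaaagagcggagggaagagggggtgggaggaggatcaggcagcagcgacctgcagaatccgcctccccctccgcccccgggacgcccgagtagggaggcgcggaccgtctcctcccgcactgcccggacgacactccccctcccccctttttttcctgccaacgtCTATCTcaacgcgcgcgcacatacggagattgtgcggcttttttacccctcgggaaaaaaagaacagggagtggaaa

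Cyp17a1 encodes the enzyme that forms the precursors of androgens. The mouse adrenal expresses it only transiently before birth, and the mouse gland makes corticosterone and not cortisol. After correction for the dye trend, its ratios were small and negative in all 6 pairs. They were -0.19, -0.03 and -0.33 in pairs 1, 3 and 5 at 4 months, against -0.13, -0.17 and -0.09 in pairs 11, 13 and 15 at 10 days. All 10-day values lay within the range of the 4-month values. The means were -0.18 ± 0.15 at 4 months and -0.13 ± 0.04 at 10 days (SD, n = 3 each). Among all features, 4.75% were negative in all 6 pairs. Without correction of the arrays the means of Cyp17a1 were 0.11 at 4 months, -0.06 at 10 days and 0.02 over all 6 pairs. The sign at 4 months and over all 6 pairs thus depended on the correction.

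The mean of Cyp17a1 over all 6 pairs was -0.16 (SE 0.07, 95% interval -0.32 to 0.00, unadjusted p = 0.0551, adjusted p = 0.347 in limma). The SD over pairs was 0.10, below the array error of 0.21, and on single arrays 3 of 12 were positive. In pair 13 the Cy5 array gave 0.19 and the Cy3 array -0.53. The even pair values thus average arrays that disagreed by more than the pairs did.

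Gata4 encodes a zinc finger transcription factor that acts with SF-1 on gonadal genes and is scarce in the adult mouse adrenal cortex. Over all 6 pairs it had the mean nearest to 0 of the 8 genes, 0.03 (SE 0.07, 95% interval -0.13 to 0.19, adjusted p = 0.881 in limma). Its pair values were -0.10, 0.11 and 0.10 in pairs 1, 3 and 5 at 4 months, against -0.02, 0.13 and -0.05 in pairs 11, 13 and 15 at 10 days, and the groups overlapped. The means were 0.04 ± 0.12 at 4 months and 0.02 ± 0.10 at 10 days (SD, n = 3 each). Every Cy5 array of Gata4 was positive, from 0.03 to 0.58, and every Cy3 array negative, from -0.37 to -0.09. A value from 1 dye orientation would thus carry a sign that the other does not share. The 95% interval of the 4-month mean ran from -0.19 to 0.27 and that of the 10-day mean from -0.21 to 0.25.

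**Figure D2:**
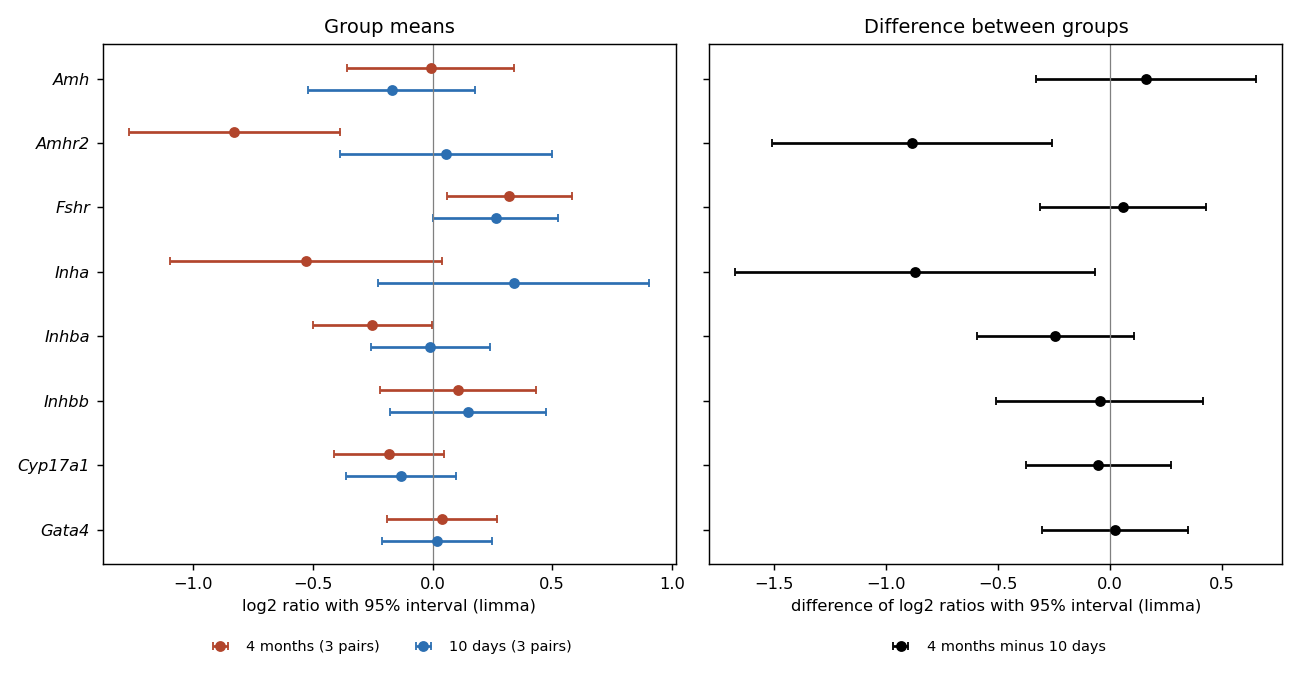
Group means of the 8 genes in limma with 95% intervals (left, 4 months above 10 days, 3 pairs each) and the 4-month minus 10-day difference (right), all as log2 ratios in the deposited direction. The intervals of Amhr2 at 4 months, of Inhba at 4 months, of Fshr at both ages and of the difference for Amhr2 and Inha do not cover 0, and none of these passed the adjusted threshold.

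The median of the 8 was -0.21, 0.04 and -0.06 in pairs 1, 3 and 5 at 4 months, against 0.03, 0.02 and -0.06 in pairs 11, 13 and 15 at 10 days. Over the 6 pairs, which share the arrays and their dye sets, Pearson's r between 2 of the genes ran from -0.56 for Amh and Inha to 0.77 for Amh and Fshr, with a median of 0.26 over 28 combinations, of which 21 were above 0. Inha and Inhba were at 0.73, with pair 1 lowest for both. The ligand Amh and its receptor gene Amhr2 were at -0.10. With 6 pairs these values describe the arrays only.

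**Figure D3:**
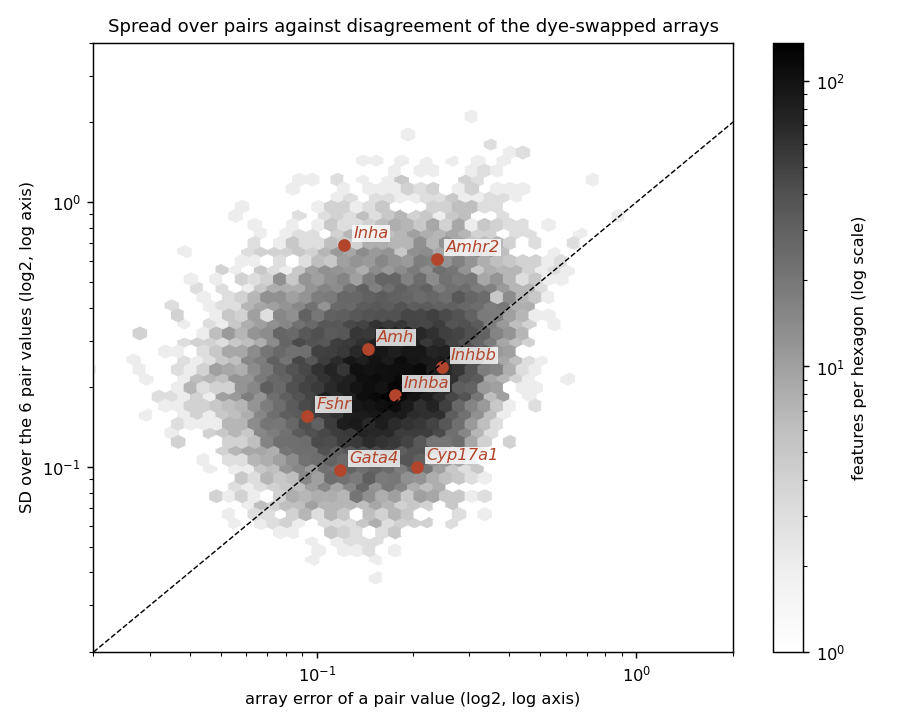
SD over the 6 pair values (vertical) against the array error of a pair value (horizontal), both in log2 units on log axes, for 20356 features in grey and the 8 genes in red. The SD includes any difference between the age groups. The dashed line marks equal values. Inha (0.69 against 0.12) and Amhr2 (0.61 against 0.24) lie highest of the 8, and Cyp17a1, Gata4 and Inhbb lie below the line.

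Partners of the 8 genes were read from lists of their pathways. Of 18 measured transcription factors and partners of the gonad, 0 passed in the mean over all 6 pairs, with 5 positive, 13 negative and a median of -0.02, against 47.1% positive and a median of -0.01 for all features. At an unadjusted p under 0.05 there were 1 positive and 1 negative gene, 2 of 18, against 15% of all features, the share that applies to the lists that follow too. The highest means were those of Lhx9, a factor of the early gonad, at 0.31 (6 of 6 pairs positive) and the co-activator gene Cited2 at 0.17 (6 of 6 pairs positive). The lowest were those of Nr0b1, which encodes the SF-1 antagonist DAX-1, at -0.40 (SE 0.12, adjusted p = 0.197) and the Wilms tumour factor gene Wt1 at -0.16. Nr0b1 was at -0.60 at 4 months and -0.20 at 10 days, and Gata6, the GATA gene of the adult cortex, at -0.15 at 4 months and 0.005 at 10 days.

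Among 19 measured genes of activin, inhibin and AMH signalling, 0 passed over all 6 pairs in limma, with 10 positive, 9 negative and a median of 0.05. At an unadjusted p under 0.05 there were 1 positive and 2 negative genes. Bmpr2, a type II receptor gene, was at 0.35 (SE 0.08, adjusted p = 0.110) and positive in 6 of 6 pairs, and the type I receptor gene Acvr1c was at 0.19. The activin receptor gene Acvr2b was at -0.37 (SE 0.14, adjusted p = 0.265) and Tgfbr3, which encodes the inhibin co-receptor betaglycan, at -0.31 (SE 0.09, adjusted p = 0.206). Acvr2b was negative in 6 of 6 pairs and Tgfbr3 in 5 of 6.

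Among 13 measured genes of steroid synthesis, 0 passed over all 6 pairs in limma, with 5 positive, 8 negative and a median of -0.05. At an unadjusted p under 0.05 there were 2 positive and 1 negative gene. Fdx1, which encodes the electron donor of mitochondrial steroid enzymes, was at 0.71 ± 0.51 at 4 months and 0.06 ± 0.34 at 10 days (SD, n = 3 each). Cyp11a1, the cholesterol side-chain cleavage enzyme gene, was at 0.83 ± 0.45 at 4 months and -0.07 ± 0.91 at 10 days. Its 10-day pairs ran from -1.01 to 0.80. For both genes the difference between the groups had adjusted p = 0.933 in limma. Akr1c18, a progesterone-metabolising enzyme gene, was at -0.77 ± 1.55 at 4 months and -0.39 ± 1.02 at 10 days (SD, n = 3 each). It was positive in 3 of 6 pairs, and its 4-month values were 0.07, 0.18 and -2.555 in pairs 1, 3 and 5. Cyp21a1, whose near-identical pseudogene may share its probe, averaged 0.33 ± 1.57 at 4 months and -2.30 ± 2.24 at 10 days (SD, n = 3 each).

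Markers of gonadal cells and of germ cells gave 1 call. Of 5 granulosa cell genes, Gja1, a gap junction gene with a wide expression, passed at -1.02 (SE 0.09, adjusted p = 0.0290 in limma), as 0.0558% of all features did. It was negative in 6 of 6 pairs, but 10 of 17 alternative settings ended the call, among them median centring (adjusted p = 0.0512), sex as a term (0.0600) and leaving out pair 1, 3, 13 or 15 (0.0582 to 0.214). Foxl2, the defining factor of these cells, was at -0.11. Nr5a2 and Hsd17b1 had the highest means of that list, at -0.00 and -0.04, and Fst was at -0.15 from 5 pairs, as pair 1 had no value. Of 7 Sertoli cell genes, 0 passed and 1 was positive, with Ptgds at 0.09, Dmrt1 at -0.01, Dhh at -0.35 and Rhox5 at -0.16. Of 4 Leydig cell genes only Hsd17b3, which encodes the testosterone-forming enzyme, was measured, at 0.50 at 4 months and 0.15 at 10 days (adjusted p = 0.250 over all 6 pairs). Of 7 germ cell genes 0 passed, with Prm1 at 0.10, Dazl at 0.06, Zp3 at -0.10 from 5 pairs and Tnp1 at -0.10. In limma 1 of 7 Sertoli genes and 0 of 7 germ cell genes had an unadjusted p under 0.05, against 15% of all features.

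**Figure D4:**
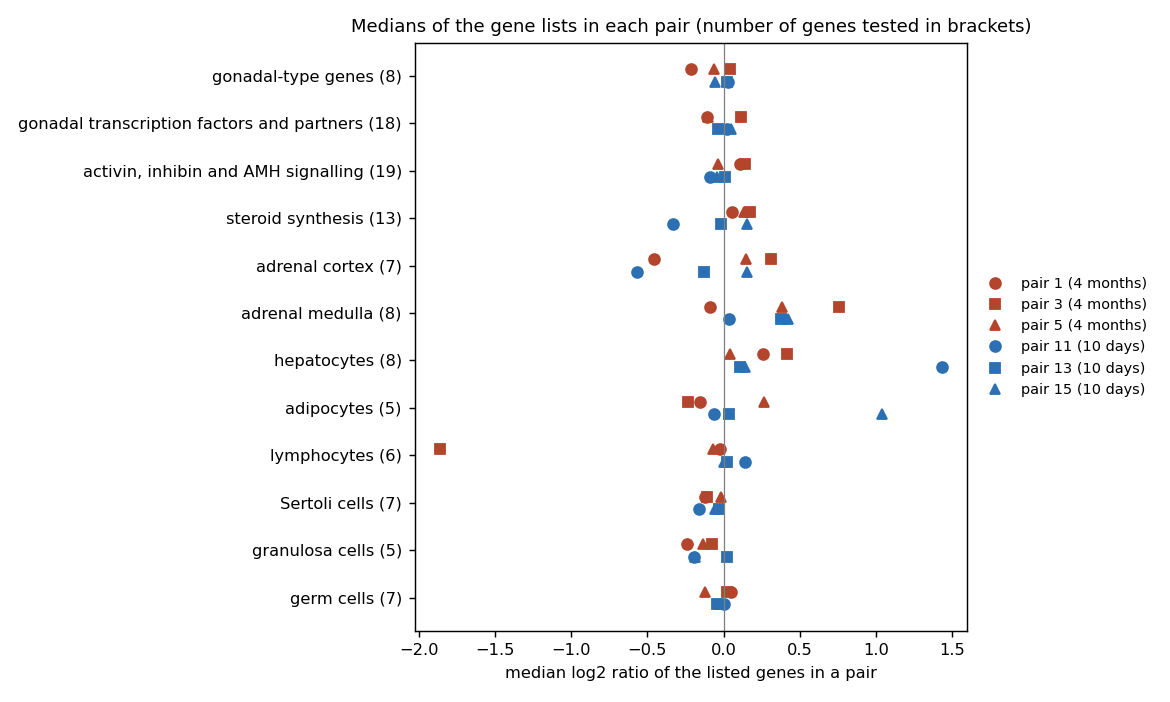
Median log2 ratio of each gene list in each pair, in the deposited direction, with 4-month pairs in red above 10-day pairs in blue and the number of genes tested in brackets. The gonadal-type genes lie between -0.21 and 0.04, while hepatocyte genes in pair 11 (1.44), adipocyte genes in pair 15 (1.04) and lymphocyte genes in pair 3 (-1.86) stand apart.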

How the data were processed

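Each array holds log2 ratios of 2 channels, deposited by the authors for 25344 probes. Per the labels, each sample is an array of 1 transgenic mouse against 1 wild-type littermate. Scanner, image analysis, background subtraction, normalization and ratio direction are not stated in any source used here. In the 6 Cy3-transgenic arrays, 100% of values were log2 of a quotient of integers up to 65535 (relative tolerance 1e-13). Probe signal was the 75th percentile over these arrays of the geometric mean of those numbers, up to a common factor. Medians ran from 0.74 to 1.50 on Cy5-transgenic arrays and from -0.68 to -0.22 on Cy3-transgenic ones, and 4.30% to 6.59% of spots were empty, so a loess fit of ratio on signal (span 0.3) was subtracted on every array. After the mean of each dye orientation was taken off, arrays of a pair correlated at 0.18 to 0.65 and arrays of different pairs at -0.31 to 0.14, so columns were not turned.

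Probes with 1 gene were named from the platform's annotation, with symbols updated through RefSeq, and averaged. A pair value needs both arrays, and a feature was tested with at least 2 pairs in each group. Pair values went into limma 3.58.1 (R 4.3.3) with a mean per group, 4 residual and 3.85 prior degrees of freedom, two-sided, Benjamini-Hochberg adjusted over all features. The procedure was tested on simulated data. The pairs are separate animals, and their number limits the precision. The members and lists were chosen with earlier results of these data known. Genes named are all members, Nr5a1, and of each list every call and the 2 highest and 2 lowest means over all 6 pairs. Gata6, Foxl2 and Cyb5a fall outside this rule and were chosen after their values were seen, and lists of other tissues are given by medians.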

Additional observations from a re-analysis of the deposited data

How the results depend on the processing

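Each value is already the ratio within a pair of littermates, so the tests of the means use this pairing. The comparison between the age groups could not be paired, because these groups share no mouse numbers. Counts of called features, which were 12 in the mean over all 6 pairs and 0 elsewhere, rest on the processing. The mean over all 6 pairs gave 0 with arrays centred on their median, 0 with sex as a term, 0 without pairs 11, 15 and 3 together (chosen after seeing the data, with pairs or age groups weighted equally), 1 in the ordinary linear model and 54 with each probe alone. Without correction of the arrays there were 5964 calls over all 6 pairs, 2548 at 4 months, 18 at 10 days and 16 for the difference. With the transgenic sample in Cy3 alone there were 1411, 288 and 31 calls over all 6 pairs, at 4 months and at 10 days, with it in Cy5 alone 3439, 915 and 222, and with the Cy5 columns turned in sign 7255, 4763 and 2495. The cause was not tested. Leaving out 1 pair gave 0 to 15 calls over all 6 pairs (0 without pair 1, 3, 13 or 15, 4 without pair 11 and 15 without pair 5), 0 to 5 at 4 months (5 without pair 5) and 0 to 1 at 10 days (1 without pair 11).

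Of the 8 genes, 0 passed under median centring, a span of 0.7, the ordinary model, sex as a term, complete arrays, each probe alone or any pair left out. Without correction Fshr (0.61), Inhbb (0.41) and Gata4 (0.37) passed over all 6 pairs and Fshr (0.72) at 4 months. With the Cy5 columns turned, Amh passed at 0.39 at 4 months and 0.29 over all 6 pairs, Gata4 at -0.29 in both and Inhbb at -0.26 over all 6 pairs, all with the opposite sign. With the transgenic sample in Cy5 alone, Fshr passed over all 6 pairs (0.39). Of 32 values, 1 changed sign under median centring, 1 to 4 with a pair left out, 10 without correction, 13 with the transgenic sample in Cy3 alone, 2 with it in Cy5 alone and 22 with the Cy5 columns turned. Without pairs 11, 15 and 3 together, 1 of the 8 means over all 6 pairs changed sign, that of Inhbb.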

Other observations

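Cyb5a, chosen here after its values were seen, encodes cytochrome b5, which supports the androgen-forming step of the Cyp17a1 enzyme. Its pair values were -1.10, -1.04 and -0.36 in pairs 1, 3 and 5 at 4 months, against -0.31, -0.43 and -0.01 in pairs 11, 13 and 15 at 10 days. It was negative in 6 of 6 pairs and the groups overlapped. The mean over all 6 pairs was -0.54 (SE 0.11, adjusted p = 0.104 in limma), while Cyp17a1 itself was at -0.16 (SE 0.07, adjusted p = 0.347).

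Genes whose 6 pair values were most like those of a gonadal-type gene were sought among 17047 other named genes by Pearson's r. The nearest were Inafm1 and Cldn19 for Amh (r = 0.995 and 0.985), Padi2 and Hoxd4 for Amhr2 (0.989 and 0.983), and Mtmr1 and Dolk for Fshr (0.989 and 0.984). They were Kmt2b and Unk for Inha (0.991 and 0.989), Tuba3a and Mrpl43 for Inhba (0.991 and 0.989), and Olfr1276 and Mtmr11 for Inhbb (0.993 and 0.991). For Cyp17a1 they were H2bc4 and Olfr1368 (0.990 and 0.989), and for Gata4 Ruvbl2 and Mex3d (both 0.982). These are descriptions over 6 pairs that share the dye sets, with no test. None of the nearest genes was another of the 8, among which r reached at most 0.77. With 6 pairs and 17047 genes compared, this does not show whether the members vary together.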
